A study of Mus musculus with 6 samples.

Results

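Tpbg encodes trophoblast glycoprotein, also called 5T4 or WAIF1, a membrane glycoprotein with leucine-rich repeats on its outer side. It was followed as 1 of the 18560 genes measured in single cells of the mouse olfactory bulb. It was chosen by name, because its transcript served as a marker of the granule cell cluster n12-GC-6. The gene (identifier 21983) lies on chromosome 9 from 85842380 to 85847057 in the mouse assembly GRCm38.p6. The count table held 2670 Tpbg molecules in 51426 annotated cells, and 1842 of them lay in the 21746 neurons that received a neuronal subcluster.

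Cells came from the olfactory bulbs of C57BL/6NJ mice aged 14 weeks. Of the 6 libraries, 2 were from control mice, 2 from mice with an occluded naris (olfactory deprivation) and 2 from trained mice, which were deprived of water and learned to tell a rewarded odor from an unrewarded one. Occlusion and training lasted 6 weeks, each library was a pool of 3 mice, and the study's supplement gives replicate 1 as males and replicate 2 as females. Control mice carry no manipulation in the sample labels, while the text of the study calls them naive and also names the unblocked side of mice with an occlusion as the control. The dissection included some olfactory epithelium. The p-values between groups refer to the spread between these 6 pools, which the tests of counts estimate for a gene largely from all genes. Each group held 1 pool of males and 1 of females, so that spread includes any difference between the sexes. The libraries held 6705 to 10570 cells and 11841160 to 17065083 molecules, with a median of 1028 to 1724 molecules per cell. The lowest median and the highest median mitochondrial share, 14.4%, were both in trained replicate 1. Between libraries, 1461 barcodes were shared, and 2956 cells carried one of them.

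Granule cells are inhibitory neurons without an axon that form reciprocal synapses with mitral and tufted cells, the output neurons of the bulb, and many are added throughout adult life. Tpbg in granule cells is known to depend on olfactory input, to promote the branching of their dendrites and to be needed for normal odor detection. In other cells the protein is known to inhibit Wnt/beta-catenin signalling through the receptor Lrp6, and to aid the response to the chemokine Cxcl12.

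Tpbg was concentrated in 3 granule cell clusters. Clusters n07-GC-2, n12-GC-6 and n14-GC-7 together held 4524 cells and 1285 Tpbg molecules, or 69.8% of the Tpbg molecules of neurons. Cluster n12-GC-6 had 1.09% of the neurons, 2.87% of all their molecules and 18.7% of their Tpbg molecules. Levels are given as counts per 1000000 UMIs (CPM), from the molecules (UMIs, named for their unique molecular identifiers) of Tpbg among all molecules summed over the cells of a cluster in a library, as a mean and SD over the 6 libraries. Since the authors' clusters were built from the same genes, the order of clusters is a description and was not tested.

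In n12-GC-6 the level was 439 and 423 CPM in the control libraries, 480 and 351 CPM in the naris-occluded libraries, and 340 and 424 CPM in the trained libraries. The mean was 409.5 ± 54.1 CPM (SD, n = 6), and no library stood far from the others. Of its 237 cells, 57.0% had at least 1 Tpbg UMI (95% Wilson interval 50.6% to 63.1%, which covers counting error only), at a median depth of 3533 UMIs per cell. Expression was uneven among the cells of the cluster: 102 had no Tpbg UMI, 61 had 1, and single cells had up to 11.

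Cluster n14-GC-7 had a mean level near that of n12-GC-6. Its libraries were at 518 and 519 CPM in controls, 423 and 424 CPM after naris occlusion, and 356 and 491 CPM after training, with a mean of 455 ± 64.7 CPM. It was above n12-GC-6 in 5 of 6 libraries, but the mean difference, 45.6 CPM, was smaller than the SD of the difference over libraries, 56.7 CPM. The cells of n14-GC-7 were shallow, with a median of 690 UMIs, and a median of 29.7% of their UMIs were mitochondrial against 6.35% in n12-GC-6. After every cell was thinned to 500 UMIs, the share of cells with a Tpbg UMI was 14.4% in n14-GC-7 and 17.7% in n12-GC-6, an order opposite to that of the levels. With mitochondrial genes left out of the total, a calculation chosen after seeing the data, the level was 650 CPM in n14-GC-7 and 438 CPM in n12-GC-6. Only 37 of the 679 cells of n14-GC-7 had at most 20% mitochondrial UMIs, and their level was 201 ± 252 CPM, while all 237 cells of n12-GC-6 passed that limit. Likewise only 41 cells of n14-GC-7 had at least 1000 UMIs, with a level of 370 ± 302 CPM, against all 237 of n12-GC-6 at 409.5 CPM. These means weight each library equally, although a library held as few as 1 such cell, and the pooled level of the 39 cells of n14-GC-7 with at least 1000 but under 2000 UMIs was 424 CPM. No order of these clusters is read from the levels of so few cells.

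Cluster n07-GC-2 came next. Its level was 204 and 264 CPM in controls, 274 and 187 CPM after naris occlusion, and 134 and 165 CPM after training, with a mean of 205 ± 55.0 CPM, below n12-GC-6 in all 6 libraries. A Tpbg UMI was found in 11.4% of its 3608 cells, at a median depth of 882 UMIs. Since the cluster was large, it held 713 Tpbg molecules, 38.7% of those in neurons.

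**Figure D1:**
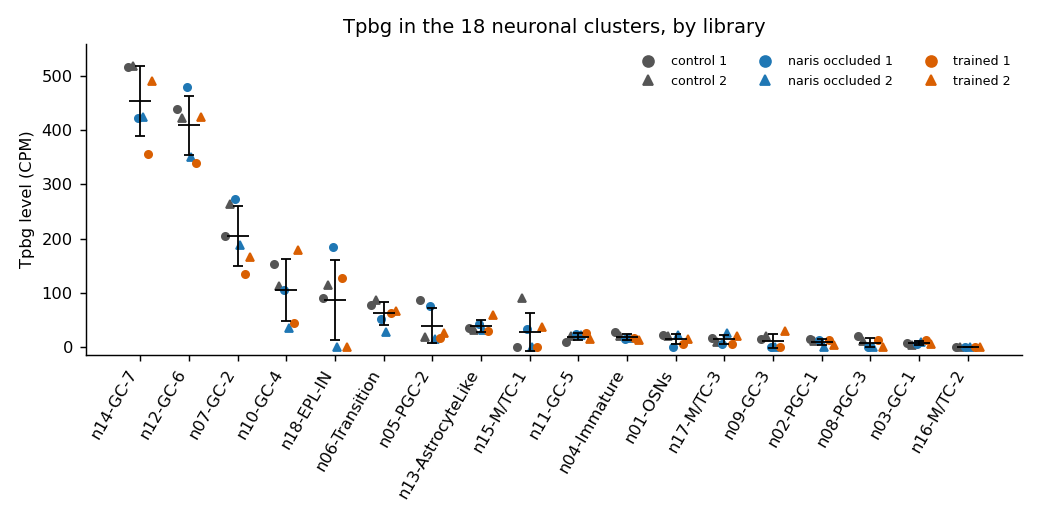
Tpbg level (CPM, vertical axis) in the 18 neuronal clusters (horizontal axis, ordered by mean level); each point is 1 library, coloured by condition (circles for replicate 1, triangles for replicate 2), and the bars are means and SDs over 6 libraries. The points of n14-GC-7 and n12-GC-6 lie between 340 and 519 CPM, those of n07-GC-2 between 134 and 274 CPM, and all libraries of n16-M/TC-2 lie at 0.

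Below these clusters the levels fell off and neighbours overlapped. Granule cluster n10-GC-4 was at 104 ± 57.4 CPM, below n07-GC-2 in 5 of 6 libraries. Only 13 of its 234 cells had a Tpbg UMI, and 6 cells with at least 4 UMIs each, from 4 libraries, held 39 of its 49 Tpbg molecules, so the signal of this cluster came from few cells. Their depth was not average either, since cells with a Tpbg UMI had a median of 3840 UMIs and cells without one 1670. The interneuron cluster n18-EPL-IN (86.0 ± 73.5 CPM), n06-Transition (61.3 ± 20.4 CPM), the periglomerular cluster n05-PGC-2 (38.8 ± 32.8 CPM) and n13-AstrocyteLike (37.9 ± 11.3 CPM) followed, and each was above the next in only 2 to 5 of 6 libraries. In n06-Transition the libraries were at 76.7 and 85.3 CPM in controls, 51.3 and 27.4 CPM after naris occlusion, and 61.7 and 65.2 CPM after training.

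The remaining granule clusters had little Tpbg. Cluster n11-GC-5 was at 18.4 ± 6.12 CPM and n04-Immature, the migrating young neurons, at 17.8 ± 4.99 CPM, a difference within the spread of either. The levels of n09-GC-3 (10.2 ± 12.2 CPM) and n03-GC-1 (7.07 ± 3.62 CPM) were within the spread of the sensory neurons of the epithelium, n01-OSNs, at 13.4 ± 9.35 CPM. The name granule cell thus covered levels from 7.07 to 455 CPM. Among the excitatory output neurons, n16-M/TC-2 had 0 Tpbg UMIs in 116 cells, which allows a share of cells with a UMI, not of cells expressing the gene, of up to 2.59% and a level of up to 12.5 CPM, while n15-M/TC-1 was at 26.3 ± 35.2 CPM and n17-M/TC-3 at 13.3 ± 8.20 CPM.

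The names of the 3 leading clusters were checked against marker genes. Gad1, which makes the inhibitory transmitter GABA, was at 2344 CPM in n12-GC-6, 1004 CPM in n07-GC-2 and, in n14-GC-7, 1152 CPM, and the transcription factor Meis2 was at 2027, 1411 and 477 CPM. Of the other listed granule and interneuron markers, Gad2, Pcp4, Tshz1 and Pbx3 were also highest in n12-GC-6 among these 3 clusters. Slc32a1, Synpr, Penk, Calb2, Crhr1 and Camk4 were not. In the same order of clusters, the GABA transporter Slc32a1 was at 356, 598 and 714 CPM. The synaptic vesicle gene Synpr was at 758, 1762 and 1386 CPM. Slc17a6, a glutamate transporter of output neurons, and Slc6a3, the dopamine transporter, had no UMI in n12-GC-6. Other markers of this kind were present, and the 14 genes listed as markers of other neurons summed to 386 to 701 CPM in its libraries. The ranges were 528 to 675 CPM in n07-GC-2 and 226 to 551 CPM in n14-GC-7. The 22 genes listed as nonneuronal markers summed to 965 to 2604 CPM in n12-GC-6, 3051 to 4371 CPM in n07-GC-2 and, in n14-GC-7, 4560 to 6872 CPM. The list holds the peptide gene Npy, which interneurons also make and whose mean level was 674 CPM for n12-GC-6 but 1563 CPM for n14-GC-7. Without Npy, a sum taken after seeing the data, the ranges were 605 to 1218, 2243 to 3017 and 3091 to 4793 CPM. With and without Npy, the highest of these sums was in naris-occluded replicate 2 in each of the 3 clusters, and their part in the levels of Tpbg was not tested.

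Across the whole bulb, the first annotation put the highest levels in the same cells. Its cluster names are given as deposited, and the numbering of some, among them the astrocyte, microglia and neuron clusters, differs from the study's own. Cluster N7 was at 456 ± 73.8 CPM and N8 at 222 ± 50.1 CPM. Of the 237 cells of n12-GC-6, 230 (97.0%) sat in N10, whose 1943 cells averaged 90.4 ± 25.9 CPM, so the first annotation did not separate them. Cluster N11, at 75.6 ± 24.9 CPM, had a Tpbg UMI in 14.3% of its cells, and it combined the granule cell gene Meis2 (1659 CPM) with the endothelial genes Cldn5 (1710 CPM) and Flt1 (447 CPM). Most of it, 660 cells with 171 Tpbg molecules, was not carried into the neuronal annotation. Nonneuronal clusters held 651 Tpbg molecules in 28925 cells, 24.4% of all. Their highest levels were in the astrocyte clusters Astro2 (336 cells, 52.4 ± 29.5 CPM), Astro3 (1780 cells, 31.1 ± 15.8 CPM) and Astro1 (26.8 ± 8.31 CPM) and in endothelial EC1 (25.6 ± 5.06 CPM), and the 5 clusters of olfactory ensheathing cells were between 4.93 and 9.95 CPM.

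As a measure of free RNA in the droplets, red blood cells had a Tpbg UMI in 1.37% of cells at a median depth of 3894 UMIs, and in 0.457% after thinning to 500 UMIs. The thinned share was 0.442% in the microglia cluster MicroG2, against 17.7%, 14.4% and 6.54% in n12-GC-6, n14-GC-7 and n07-GC-2. In n03-GC-1 it was 0.470%, close to the share of red blood cells, which rests on 1 of 219 cells. The level of red blood cells was 1.76 ± 2.96 CPM, while n03-GC-1 had 7.07 ± 3.62 CPM. The thinned shares of Astro1 and EC1 were 1.31% and 1.47%.

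Within n07-GC-2, Tpbg differed between cells of different depth, a split chosen after seeing the data. Cells under 1000 UMIs were at 107 ± 48.3 CPM and cells with 1000 to under 2000 UMIs at 306 ± 76.6 CPM. The levels rose from 70.8 to 317 CPM and from 120 to 416 CPM in the control libraries, from 128 to 351 CPM and from 188 to 214 CPM in the naris-occluded libraries, and from 70.4 to 224 CPM and from 64.0 to 311 CPM in the trained libraries, so the deeper cells were higher in 6 of 6. The difference in log2(CPM + 10) was 1.49 ± 0.70 (SD, n = 6), the largest among 3588 genes with at least 50 CPM in the shallower or the deeper cells. The median of all these genes was −0.01, and 3.82% of them were higher in 6 of 6 libraries.

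Markers of granule cells did not share that difference. The values of 12 such markers ran from −0.33 for the transcription factor Pbx3 to 0.36 for the calmodulin regulator Pcp4, with Meis2 at −0.19, the enkephalin precursor Penk at −0.28 and the corticotropin-releasing hormone receptor Crhr1 at −0.05. The median mitochondrial share was 17.4% in the shallower and 17.7% in the deeper cells. The share of n07-GC-2 cells with at least 1000 UMIs was 40.4% and 31.9% in controls, 54.5% and 19.4% after naris occlusion, and 28.9% and 31.4% after training, so libraries differed in this respect as well. Compared at 1500 UMIs per cell, 39.7% of 232 cells of n12-GC-6 and 31.9% of 276 cells of n07-GC-2 had a Tpbg UMI. The gap between these clusters was narrower among deep cells than in their mean levels.

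**Figure D2:**
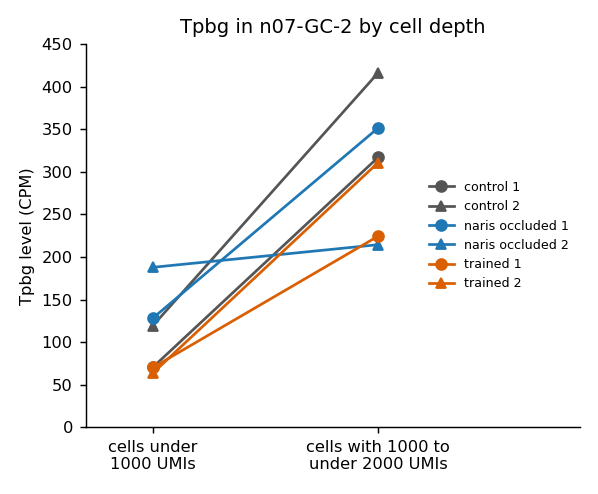
Tpbg level (CPM, vertical axis) in cells of n07-GC-2 under 1000 UMIs and with 1000 to under 2000 UMIs (horizontal axis); each line joins the values of 1 library, coloured by condition. All 6 lines rise, from 64.0 to 188 CPM in the shallower cells to 214 to 416 CPM in the deeper ones, and the line of naris-occluded replicate 2 rises least.

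To see which genes share the distribution of Tpbg, its mean levels over the 18 neuronal clusters were correlated with those of 7020 other genes that reached 50 CPM in some cluster, on the scale log2(CPM + 1). The points are clusters of the same 6 libraries and differ in depth, so Pearson's r is a description. The highest value was that of Lgr5 (r = 0.85, 0.64 to 0.83 within single libraries), a receptor for R-spondins that augments Wnt signalling. Lgr5 was at 159 ± 48.3 CPM in n12-GC-6, 171 ± 43.9 CPM in n14-GC-7 and 211 ± 28.1 CPM in n07-GC-2, but its highest level, 430 CPM, was in n05-PGC-2, where Tpbg was low.

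The other genes at the top were Gabrd (0.79), a subunit of extrasynaptic GABA receptors, Lrrc8b (0.79), a subunit of volume-regulated anion channels, Crhr1 (0.79), the membrane protein Lamp5 (0.78), Luzp2 (0.78), the adhesion protein Tenm3 (0.76), the ligand Wnt5a (0.76), the muscarinic receptor Chrm2 (0.76) and Gfra2 (0.76), a receptor for neurturin. Of these, Lrrc8b and Chrm2 were highest in n14-GC-7, and Crhr1, Lamp5 and Tenm3 in n07-GC-2. Gabrd was highest in n05-PGC-2 (167 CPM), Luzp2 and Wnt5a in n18-EPL-IN (326 and 156 CPM) and Gfra2 in n10-GC-4 (220 CPM). None was highest in n12-GC-6. Within single libraries r fell to 0.13 for Tenm3, 0.16 for Wnt5a and 0.17 for Lrrc8b, and to between 0.34 and 0.50 for the others. The choice of clusters mattered, since none of the 10 genes was among the 10 highest when only the 12 adult-born clusters were used, although r stayed between 0.70 and 0.83. There the highest was B3galt1 (0.92), a galactosyltransferase.

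The gene lists showed where Tpbg sits among related genes. An r above 0.5 was found for 7 of 12 granule and interneuron markers, led by Crhr1, and for 3.49% of all genes. Of 25 activity genes, whose transcription follows neuronal firing, 5 passed 0.5 (20.0%), with Egr1 at 0.65, Rasgrp1 at 0.60 and Nr4a1 at 0.57. In the list of Wnt and Cxcl12 signalling, 3 of 15 measurable members did, namely Wnt5a, the Wnt antagonist Sfrp1 (0.60) and the receptor Fzd9 (0.55). None of 14 nonneuronal markers and none of 13 markers of other neurons did. The most negative value in these 2 lists was that of the astrocyte transporter Slc1a3, at −0.50.

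Among 30 other leucine-rich repeat membrane proteins, 4 had an r above 0.5, including the synaptic adhesion proteins Lrrtm3 (0.62) and Slitrk1 (0.62). The closest relative of Tpbg, Tpbgl, had r = −0.61. Tpbgl was at 151 ± 71.3 CPM in the mitral and tufted cell cluster n16-M/TC-2, where Tpbg had no UMI, and it had no UMI in n12-GC-6 or n14-GC-7. The levels of the paralogs were thus highest in different neurons, the one in output neurons and the other in inhibitory granule cells.

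Within n12-GC-6, cells with and without a Tpbg UMI were compared after thinning to 1500 UMIs, which left 92 cells with one, 140 without and 5 cells too shallow. Among genes found in at least 10% of these cells and on the same side in at least 5 of 6 libraries, the 10 highest in cells with Tpbg were Abat, Tmem181a, Mrpl15, Bola1, Gm9803, Asna1, Map2k2, Iqsec3, Tubb4b and Zcchc17, with log2 ratios of 1.11 to 1.38. Abat, which breaks down GABA, led the list. The 5 lowest were Epn1, Pdpk1, Desi1, Abhd17a and Sez6, with −1.94 to −1.53. These lists were not stable, since another random draw of the thinning gave 0 of the 10 and 0 of the 5 again.

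In the same single draw, the log2 ratio, with against without a Tpbg UMI, was 0.14 for the GABA transporter Slc32a1, 0.14 for the immature neuron gene Dcx, 0.13 for the synaptic vesicle gene Synpr, 0.48 for the calcium-binding protein Calb2 and −0.64 for Penk. On average over 20 draws it was −0.03 for Slc32a1, 0.03 for Dcx, 0.18 for Synpr and −0.36 for Penk, and no direction is read from these genes. Calb2, in 9.91% of cells, was higher in 3 of 6 libraries. Crhr1, a marker of mature granule cells, was at 0.41 in this draw and at −0.38 on average over 20 draws, so no direction can be read from it in n12-GC-6. In n07-GC-2 its average over draws was 1.15, with 4 of 6 libraries above 0. Only 276 cells there were deep enough, 3332 were left out, and a library had as few as 0 cells with a Tpbg UMI in the single draw.

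When the ratio was averaged over 20 draws, an addition made after seeing the data, Dner (0.84), Cacna1i (0.83), Fndc5 (0.80), Clk4 (0.78) and Reep1 (0.76) were highest and Cpne6, Sez6, Etl4, Tln2 and Lrp11 lowest. Cacna1i, Reep1 and Dnm3 (0.75) were above 0 in all 20 draws and in the average of all 6 libraries, and in n07-GC-2 their averages were 0.09, 0.12 and 0.89. Cpne6, a calcium-dependent membrane protein of dendritic spines, had a mean log2 ratio of −1.46 and was below 0 in each of the 20 draws and in the average of each of the 6 libraries. Sez6, a membrane protein involved in dendrite growth, had −1.13, with the same count of draws and libraries. Etl4 (−0.95) and Tln2 (−0.91) were below 0 in as many draws and libraries. In n07-GC-2, where all averages rest on the 276 cells that were deep enough, they were −1.86 for Cpne6, −1.37 for Sez6, 0.15 for Etl4 and −0.08 for Tln2. These genes were chosen after their values were seen, and the 20 draws thin the same cells, so their agreement is not replication. Of all 2578 genes compared, 7.02% were above 0 and 18.7% below 0 in at least 5 of 6 libraries. The share of all genes on 1 side in all 6 libraries and all draws was not computed.

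The comparison of conditions asked whether occlusion or training changed Tpbg. No change of Tpbg passed adjustment in any cluster. In n12-GC-6, with the values per library given above, the groups overlapped in each comparison. The log2 fold change was −0.09 (SE 0.21, 95% interval −0.51 to 0.33) for naris occluded against control, −0.25 (SE 0.22, −0.68 to 0.19) for trained against control and −0.16 (SE 0.22, −0.60 to 0.29) for trained against naris occluded. The adjusted p values by edgeR's quasi-likelihood test were 1.00, 0.942 and 0.945. The test called 0.0335%, 0.1% and 0.402% of all genes in these comparisons, in that order. Fits that left out 1 library gave log2 fold changes of −0.30 to 0.094, −0.36 to −0.08 and −0.34 to 0.049 in the same order.

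In n07-GC-2 both trained libraries (134 and 165 CPM) were below all control (204 and 264 CPM) and naris-occluded libraries (274 and 187 CPM). The log2 fold change was −0.67 (SE 0.20, −1.09 to −0.26) for trained against control, with an adjusted p of 0.381 in edgeR, and −0.64 (SE 0.21, −1.06 to −0.22) for trained against naris occluded, with an adjusted p of 0.300. The latter was −0.27 without naris-occluded replicate 1. Ordered by their unadjusted edgeR p, which lay under 0.05 in both, Tpbg ranked 48 and 112 among 8217 genes. Naris-occluded libraries lay on either side of the controls, with a log2 fold change of −0.03 (SE 0.20, −0.44 to 0.37) and an adjusted p of 1.00.

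Groups that do not overlap are common with 2 libraries against 2. In n07-GC-2 they were found for 36.4% of genes in trained against control and for 36.4% in trained against naris occluded. The shares of genes called in this cluster were 0.0122% for naris occluded against control, 0.0608% for trained against control and 0.231% for trained against naris occluded. Among cells with at least 1000 UMIs, the log2 fold change of trained against naris occluded was −0.18, that of trained against control −0.64 and that of naris occluded against control −0.46, where it had been −0.03 in all cells. None of these passed adjustment. The effects in n12-GC-6 and n07-GC-2 were also compared with each other. That of occlusion differed by −0.04 (SE 0.27, −0.56 to 0.48, adjusted p = 1.00 in edgeR) and that of training by 0.44 (SE 0.28, −0.10 to 0.98, adjusted p = 1.00), and the shares of genes called were 0% and 0.0169%.

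**Figure D3:**
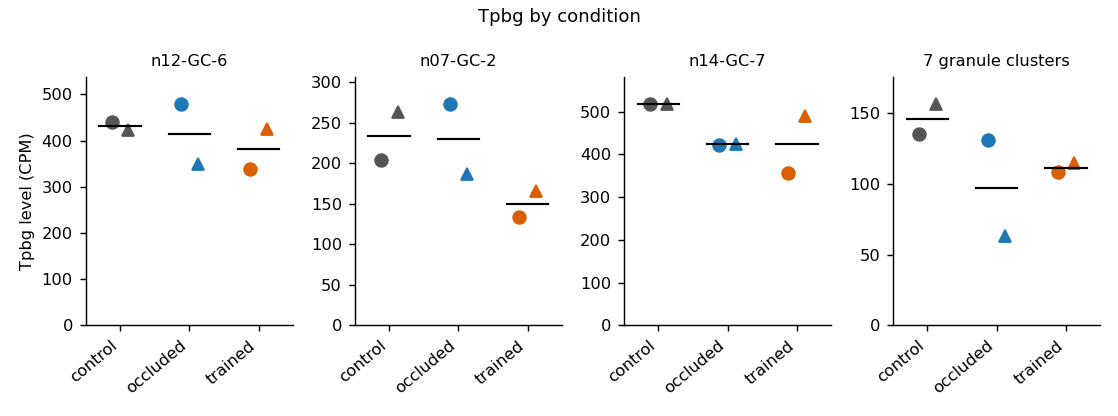
Tpbg level (CPM, vertical axis from 0) by condition (horizontal axis), with a panel for each of n12-GC-6, n07-GC-2, n14-GC-7 and the 7 granule clusters summed; each point is 1 library, circles for replicate 1 and triangles for replicate 2, and the bars are means of 2 libraries. In n12-GC-6 the conditions overlap, and in n07-GC-2 both trained libraries, at 134 and 165 CPM, lie below the other 4.

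With the 7 granule clusters summed, the level was 135 and 156 CPM in controls, 131 and 63.0 CPM after naris occlusion, and 108 and 115 CPM after training. Naris-occluded replicate 2 stood apart from the other 5 libraries, and both manipulated groups were below the controls. The log2 fold change was −0.65 (SE 0.21, −1.09 to −0.21, adjusted p = 0.541 in edgeR) for naris occluded against control, −0.38 (SE 0.21, −0.83 to 0.06, adjusted p = 0.731) for trained against control and 0.27 (SE 0.22, −0.18 to 0.72, adjusted p = 0.604) for trained against naris occluded. The first value rested on naris-occluded replicate 2, and without it the log2 fold change was −0.22, with an adjusted p of 0.891. Without naris-occluded replicate 1 it was −1.27 (adjusted p = 0.000307 in edgeR), and with all genes of at least 1 count tested it was −0.64 (adjusted p = 0.0322 in edgeR). Trained against naris occluded was 0.89 (adjusted p = 0.00253 in edgeR) without naris-occluded replicate 1 and −0.17 without replicate 2. Leaving out a naris-occluded library leaves that group with 1 library, which the fit assumes to vary like the other groups, so these adjusted p do not measure the spread within naris occlusion. The test called 0.044%, 0.141% and 2.67% of genes in these comparisons. Groups did not overlap for 37.7% of genes in naris occluded against control and for 39.8% in trained against control. In such a sum, fewer cells of a cluster with Tpbg and less Tpbg RNA per cell cannot be told apart.

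The makeup of the sampled cells did differ between libraries. Among the UMIs of the 12 adult-born clusters (n02 to n12 and n14), n14-GC-7 supplied 2.84% and 2.54% in controls, 0.866% and 0.565% after naris occlusion, and 3.70% and 1.88% after training. Cluster n07-GC-2 supplied 15.6% and 14.8%, then 16.3% and 7.18%, then 17.6% and 16.6%, and n12-GC-6 4.24% and 3.84%, then 3.46% and 2.87%, then 4.01% and 2.31%. Naris-occluded replicate 2 was lowest for n07-GC-2 and n14-GC-7, and its share of n03-GC-1, which has almost no Tpbg, was the highest, at 17.9%.

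Levels were therefore also computed with each cluster weighted by its mean share over the 6 libraries. Over the 7 granule clusters, the level at fixed makeup was 122 and 139 CPM in controls, 142 and 106 CPM after naris occlusion, and 89.1 and 111 CPM after training, with the naris-occluded libraries on either side of the controls. There the difference of naris occluded from control was −49.0 CPM as sampled and −6.24 CPM at fixed makeup (exact permutation p = 0.333 and p = 1), and that of trained from control was −34.4 and −30.4 CPM (exact permutation p = 0.333 for each). Over the adult-born clusters as sampled, Tpbg was at 87.8 and 89.5 CPM in controls, 80.4 and 39.3 CPM after naris occlusion, and 67.9 and 63.7 CPM after training. At fixed makeup the same libraries were at 79.2 and 83.6 CPM, 83.4 and 60.3 CPM, and 55.7 and 65.3 CPM. The difference of naris occluded from control was −28.7 CPM as sampled and −9.59 CPM at fixed makeup, and that of trained from control was −22.8 and −20.9 CPM. The former difference depended on single libraries and on the weights, with −21.1 CPM without naris-occluded replicate 1, 1.96 CPM without naris-occluded replicate 2, −21.8 CPM with equal weights for the clusters and −16.4 CPM in cells with at least 1000 UMIs. The latter was −26.2 CPM with equal weights and −18.1 CPM in the deeper cells, and between −25.7 and −16.1 CPM without single libraries.

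Exact two-sided permutation tests over libraries gave p = 0.667 for naris occluded against control and p = 0.333 for trained against control at fixed makeup, and 0.333 is the smallest p that 2 libraries against 2 allow. Trained minus naris occluded was 5.93 CPM as sampled and −11.3 CPM at fixed makeup (exact permutation p = 1 and p = 0.667). Both differences were smaller than the gap between the naris-occluded libraries.

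**Figure D4:**
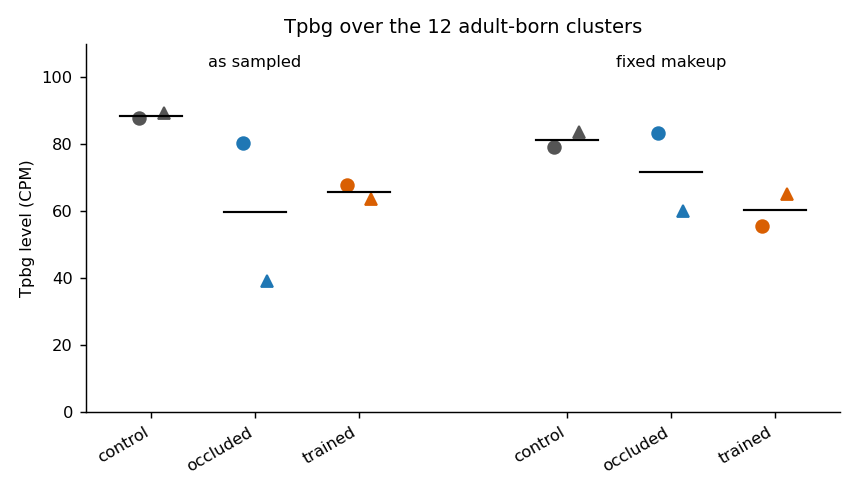
Tpbg level (CPM, vertical axis from 0) over the 12 adult-born clusters, by condition (horizontal axis), on the left as sampled and on the right with each cluster at its mean share of UMIs over the 6 libraries; each point is 1 library (circles for replicate 1, triangles for replicate 2) and the bars are means of 2 libraries. As sampled, naris-occluded replicate 2 is at 39.3 CPM, below the other 5 libraries, and at fixed makeup it is at 60.3 CPM, between the trained libraries.

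Tpbg passed the filter on low counts in 9 other clusters (n14, n10, n06, n05, n13, n11, n04, Astro1 and EC1), and none was called in any comparison by edgeR. Log2 fold changes ran from −1.11 to 0.78 for naris occluded against control (7 of 9 below 0), from −1.37 to 0.68 for trained against control (6 of 9) and from −1.13 to 0.83 for trained against naris occluded (6 of 9). Below 0.05 in the unadjusted edgeR test, 1 cluster was found in each comparison, namely n06-Transition (−1.11), n04-Immature (−0.72) and Astro1 (0.68). Over all genes of the 9 clusters, 0.0486%, 0.115% and 0.22% were called.

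Groups that did not overlap were lower after naris occlusion in n14, n10, n06 and n04 and higher in n11, so 5 of 9 clusters against a share of 33.7% of genes. In trained against control they were lower in n14, n06 and n04 (3 of 9, against 35.6%), and in trained against naris occluded they were higher in n06 and Astro1 (2 of 9, against 35.9%). In the other 29 clusters Tpbg was below the filter.

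Other genes known to follow neuronal activity did differ between the same libraries. For their values in the summed clusters, too, the makeup of the cells and the RNA per cell cannot be told apart. With granule clusters summed, 16 of 33 measurable activity genes were called higher in trained against naris-occluded libraries and none lower, where 2.67% of all genes were called in either direction, with a median log2 fold change of 0.84 against 0.00 over all genes. They included Nptx2 (1.87), Fosl2 (1.91), Homer1 (1.33), Egr1 (1.29), Nr4a1 (1.23) and Bdnf (1.37), with adjusted p in edgeR of at most 0.0317 over all 16. In trained against control, Homer1 (1.04), Fosl2 (1.40) and Nptx2 (1.30) were called, beside 0.141% of all genes. In naris occluded against control none of 33 was, beside 0.044% of all genes, a share so low that this says little about the list. Its median there was −0.29, and 10 genes had an unadjusted edgeR p under 0.05. Of these, Jund (0.46) and Jun (0.39) had positive values and the other 8 negative ones.

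Fewer activity genes passed the filter and were called within single clusters. In n07-GC-2, Fosl2 (3.14), Nr4a1 (2.00) and Nptx2 (1.37) were called higher in trained against naris occluded, out of 25, beside 0.231% of all genes called there. In n12-GC-6, Egr1 (1.37) and Homer1 (1.54) were, out of 15, beside 0.402% of all genes. Tpbg in n07-GC-2 had a negative value in that comparison, −0.64, where the median of the activity genes was 0.83. No activity gene was called in the other comparisons of these clusters by edgeR, in which 2 to 10 genes had an unadjusted p under 0.05. For naris occluded and trained against control, 0.0122% and 0.0608% of all genes were called in n07-GC-2 and 0.0335% and 0.1% in n12-GC-6. At such shares the lack of calls says little about these lists.

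**Figure D5:**
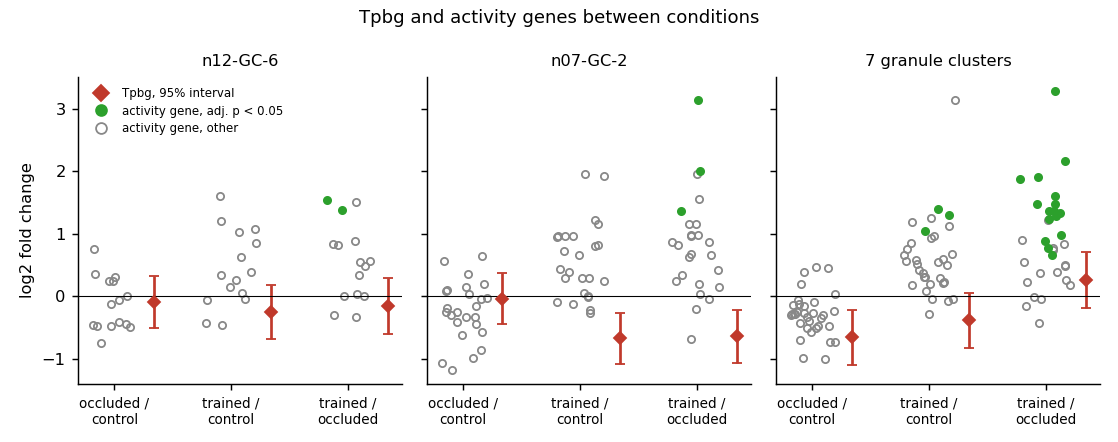
Log2 fold change (vertical axis) of Tpbg (diamonds with 95% intervals) and of the measurable activity genes (circles, filled where the adjusted p was under 0.05) for 3 comparisons of conditions (horizontal axis), in n12-GC-6, n07-GC-2 and the 7 granule clusters summed. In trained against occluded, the median activity gene of the granule clusters is at 0.84 and Tpbg at 0.27, and in n07-GC-2 Tpbg is at −0.64.

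None of the 22 measurable genes of Wnt and Cxcl12 signalling was called by edgeR in the summed granule clusters in any comparison, with 1 or 2 at an unadjusted p under 0.05, nor was any in n07-GC-2 (13 genes) or n12-GC-6 (3 genes). Of all genes tested in the summed clusters, 0.044%, 0.141% and 2.67% were called in the 3 comparisons. In single clusters the shares were 0.0122% to 0.231% in n07-GC-2 and 0.0335% to 0.402% in n12-GC-6. With so few genes called at all, the lack of calls says little about this list. Among 33 leucine-rich repeat membrane proteins, Lrrtm3 (0.71) and Lrrtm2 (0.82) were higher and Lingo2 (−0.91) was lower in trained against naris occluded in the summed granule clusters, which is 3 of 33 beside the 2.67% of all genes called. In this sum, too, the makeup of the cells and the RNA per cell cannot be told apart. Lingo2 was highest in n03-GC-1 (111 CPM). That cluster supplied 15.2% and 17.9% of the adult-born UMIs after naris occlusion and 8.99% and 6.45% after training. Its part in the value of Lingo2 was not tested.

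Marker genes changed as well in that sum. The hemoglobin genes of red blood cells, Hba-a1 (3.14) and Hbb-bs (2.38), were higher in naris occluded against control and lower in trained against naris occluded (−4.19 and −3.48), where Calb1 (−2.64), a marker of other neurons, was lower too. Calb2 (−1.25), which marks granule and periglomerular cells and was highest in n03-GC-1 (13129 CPM), was lower in that comparison as well. In n07-GC-2, Hbb-bs was lower in trained against control (−1.32) and in trained against naris occluded (−1.52), and Calb2 was lower in the latter (−1.02). The part of such RNA and of these marker differences in the values of Tpbg was not tested.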

How the data were processed

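Single cells of the olfactory bulb were measured in 6 libraries with a droplet kit that counts 3′ ends (10x Chromium v2). Per the submitters' processing notes, Cell Ranger 2.0.0, Seurat 2.2.1 and the build mm10 were used. The authors deposited raw UMI counts per gene and cell without normalization, removed doublets, and deposited annotations with each cell's library, cluster and fraction of mitochondrial UMIs. Those cells and clusters were used unchanged, and 1123 barcodes outside the annotation were left out. The trained libraries' cell-name starts are reversed against the library column, which was used.

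Counts were summed per library and cluster. Conditions were compared with edgeR 4.0.16 (quasi-likelihood test, TMM factors, filterByExpr, all 6 libraries, Benjamini-Hochberg over all genes at 0.05; R 4.3.3), with SE as the absolute log2 fold change over the square root of F. DESeq2 1.42.0 was an alternative. On simulated data, changes of 1 on the log2 scale were called for 66% of genes in n12-GC-6, 60.0% in n07-GC-2 and 80.0% in the summed granule clusters. There, 100 genes changed by 1 and 100 by 2 at the same time, and none of them had low counts. In most real comparisons fewer genes were called, where the adjustment is stricter, so these shares do not give the chance of calling Tpbg. Levels, correlations over clusters and shares of cells were computed with Python 3.11.15. The interaction of cluster and condition was fitted with library as a block.

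Tpbg, the gene lists and the tests were chosen with earlier results of these data known. Named genes are Tpbg, the 10 most like it over clusters, the 10 highest and 5 lowest in n12-GC-6 cells with a Tpbg UMI, 6 stated genes, and from each list the 3 most extreme members or those past the test, and others were chosen after their values were seen. The gene's location is from RefSeq (GRCm38.p6). The alternatives were other filters, factors and tools, a replicate block, deeper cells, other weights, pseudocounts and draws, and leaving out each library.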

Additional observations from a re-analysis of the deposited data

Results flagged for a closer look

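Tpbg was also found in barcodes that the comparisons do not use. The 1123 barcodes outside the annotation held 110 Tpbg UMIs, in 71 of them, which is 36.4 CPM at a median of 2327 UMIs per barcode.

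In 2 comparisons of conditions, all libraries of a group moved one way in one cluster and the other way in another. For naris occluded against control, n11-GC-5 was higher, with its lower naris-occluded library at 21.0 CPM against controls of up to 19.6 CPM, while n14-GC-7, n10-GC-4, n06-Transition and n04-Immature were lower. For trained against naris occluded, n06-Transition was higher, with its lower trained library at 61.7 CPM against naris-occluded libraries of up to 51.3 CPM, while n07-GC-2 was lower. In the same comparison Astro1 was higher, with its lower trained library at 27.0 CPM against naris-occluded libraries of up to 25.6 CPM, while n07-GC-2 was lower. Such groups are common with 2 libraries against 2. Over the 9 other clusters they were found for 33.7% of genes in naris occluded against control. In trained against naris occluded the share was 35.9% there and 36.4% in n07-GC-2. The counts were also low, with 6 to 16 Tpbg UMIs per library in n11-GC-5 and 2 to 18 in n10-GC-4. These differences between clusters were not tested.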

How the results depend on the processing

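For the 9 comparisons of conditions, 99 of 108 alternatives kept the direction and the side of the threshold. In n12-GC-6 the limits of 1000 UMIs and of 20% mitochondrial UMIs removed no cell, so 6 of these repeat the reported values. Naris occluded against control in the granule clusters passed the threshold when all genes with at least 1 count were tested (−0.64, adjusted p = 0.0322) and without naris-occluded replicate 1 (−1.27, adjusted p = 0.000307), and trained against naris occluded did without that library (0.89, adjusted p = 0.00253). Without naris-occluded replicate 2 the latter was −0.17. The cause was not tested. Each fit without a library leaves its group with 1 library, assumed to vary like the other groups. Over the fits that left out 1 library, log2 fold changes of naris occluded against control, trained against control and trained against naris occluded ranged from −0.30 to 0.094, −0.36 to −0.08 and −0.34 to 0.049 in n12-GC-6, from −0.41 to 0.18, −0.87 to −0.51 and −0.86 to −0.27 in n07-GC-2, and from −1.27 to −0.22, −0.50 to −0.28 and −0.17 to 0.89 in the granule clusters. The signs turned in n12-GC-6 without naris-occluded replicate 2 (0.094), without naris-occluded replicate 1 (0.049) and without trained replicate 1 (0.0022), and in n07-GC-2 without control replicate 2 (0.12) and without naris-occluded replicate 2 (0.18). At fixed makeup the same differences ranged from −21.1 to 1.96 CPM, −25.7 to −16.1 CPM and −22.8 to 0.259 CPM.

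With the replicate number as a replicate block, no call changed, and n07-GC-2 gave −0.67 (adjusted p = 0.122) for trained against control and −0.66 (adjusted p = 0.0784) for trained against naris occluded, and the granule clusters −0.68 (adjusted p = 0.235) for naris occluded against control. The deviations of libraries with the same number, which also gives the sex of the pool, had correlations of 0.0316 to 0.196 over genes, so the numbers were not taken to pair the libraries. Of the 10 genes most like Tpbg, 5 were found again with a pseudocount of 10 CPM, 5 with Spearman's rho, 0 with 12 adult-born clusters and, in an alternative chosen after seeing the data, 4 without n07-GC-2, n12-GC-6 and n14-GC-7. Of the genes highest and lowest in n12-GC-6 cells with Tpbg, 0 and 0 were found again with thinning to 1000 UMIs, with another random draw and with Pearson's r of unthinned counts, and 0 and 1 (Sez6) over 20 draws, which were added after seeing the data. The difference of n12-GC-6 from n14-GC-7 was −45.6 CPM, −213 CPM without mitochondrial genes (added after seeing the data) and 3.29 percentage points as a thinned share of cells, and it turned to 39.95 CPM in cells with at least 1000 UMIs and 209 CPM in cells with at most 20% mitochondrial UMIs, both added after seeing the data and with as few as 1 and 3 cells of n14-GC-7 in a library. Few cells also limit the values of n12-GC-6 itself, which held 22 to 56 cells per library.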
